A study of Homo sapiens with 7 samples.

Results

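The sites described here are the MYCN binding summits on the distal short arm of chromosome 2 that lie outside the amplified MYCN segment. A summit, the position of locally highest ChIP signal, was taken from the deposited peak list of Kelly cells on hg19 if it lay on chromosome 2 before position 15300000 or from 17000000 to 30200000. The first stretch is called the telomeric side and the second the centromeric side. Together they held 941 of 64657 summits, which is 1.46% of the list and 20.6% of the 4568 summits of chromosome 2. The telomeric side had 470 summits in 366 intervals and the centromeric side 471 in 353. The excluded segment between them had 29 summits, and the 3598 summits from 30200000 onwards are called the rest of chromosome 2.

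MYCN occupancy was mapped by chromatin immunoprecipitation and sequencing in Kelly, an established human neuroblastoma cell line with an amplified MYCN gene and mutated ALK. The labels give 2 MYCN ChIP samples of resistant cells kept for 48 h in TAE684, an ALK kinase inhibitor, at 1 µM, and 2 MYCN ChIP samples of sensitive cells kept for 48 h in DMSO. They also give 2 input samples (sheared chromatin sequenced without an antibody) of the resistant cells and 1 of the sensitive cells. Each state has 1 peak list for both of its ChIP samples, and the lists were identical in 64657 of 64657 rows, and 64657 rows of the resistant list carried names of the sensitive list. No comparison of the states was therefore made, the values below refer to the sensitive cells, and none has a replicate error.

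MYCN belongs to the MYC family of helix-loop-helix factors. Together with MAX it binds E-boxes, best the palindrome CACGTG, mostly in open chromatin at gene starts, and in neuroblastoma its amplification drives genes of growth, nucleotide and polyamine synthesis and ribosome production. Distal 2p carries MYCN itself, several such growth genes, and, near the centromeric border used here, the gene of the receptor kinase ALK. Part or all of this arm is often gained in neuroblastoma. Extra copies of a region add reads to ChIP and input libraries alike.

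Promoter sequences of loci on this arm are shown for the E-box palindrome that MYCN prefers. No hg19 genome or annotation was used here, so the bases under the peaks themselves are not shown. In their place stand promoter windows of loci on this arm from RefSeq on GRCh38.p14, cut around the CACGTG palindrome, which is printed in capitals. CACGTG reads the same on both strands. Positions on GRCh38 are not comparable with the hg19 summit positions given further on.
KIDINS220, chr2:8837594-8837666, minus strand: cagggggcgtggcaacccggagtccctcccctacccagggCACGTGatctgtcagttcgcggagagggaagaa
KLF11, chr2:10043607-10043692, plus strand: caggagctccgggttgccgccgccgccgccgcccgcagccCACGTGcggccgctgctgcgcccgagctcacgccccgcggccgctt
ODC1, chr2:10447993-10448081, minus strand: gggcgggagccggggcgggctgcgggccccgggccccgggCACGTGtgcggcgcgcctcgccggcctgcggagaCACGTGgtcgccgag
PUM2, chr2:20350965-20351048, minus strand: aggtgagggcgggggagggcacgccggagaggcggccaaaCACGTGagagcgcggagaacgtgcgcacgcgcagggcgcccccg
DNMT3A, chr2:25252345-25252430, minus strand: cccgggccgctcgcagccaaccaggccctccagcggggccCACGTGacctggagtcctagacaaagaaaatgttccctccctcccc
WDR43, chr2:28894630-28894686, plus strand: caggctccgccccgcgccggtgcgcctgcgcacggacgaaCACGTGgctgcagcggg
ALK, chr2:29223895-29223980, minus strand: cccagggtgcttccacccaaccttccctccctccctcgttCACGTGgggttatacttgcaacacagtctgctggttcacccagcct

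These 7 genes were the ones with CACGTG in at least 1 window of 250 bases before to 50 after a RefSeq start, among 32 loci listed for this arm. Windows were found for 27 of the 32 loci, 45 windows in all, and 9 of them held the palindrome (20%, 95% CI 9.58 to 34.6), against 2548 of 35116 windows of all genes (7.26%). The loci were picked with MYCN biology and earlier results in mind, so this share is no independent result. Over all protein-coding genes in RefSeq order, 7 of 71 windows held it on the telomeric side (9.86%, 95% CI 4.06 to 19.3), 13 of 136 on the centromeric side (9.56%, 95% CI 5.19 to 15.8) and 103 of 1428 on the rest of chromosome 2 (7.21%, 95% CI 5.93 to 8.68). The windows came from 45 genes of the telomeric side, 101 of the centromeric side and 959 of the rest. Windows of 1 gene can overlap and count the same palindrome again, so these intervals, also that of the listed loci, can be too narrow. The intervals of the sides include the value of the rest. ODC1, ornithine decarboxylase, which opens polyamine synthesis, was the one printed gene with CACGTG 2 times. Their first bases were at positions -29 and 6 from the RefSeq start of the printed window, as for the positions that follow. In WDR43, a nucleolar protein of ribosome biogenesis, the palindrome began at position 4, and in KIDINS220, a scaffold of neurotrophin signalling, at -13. It began at -24 in PUM2, a translational repressor, and at -75 in a window of the DNA methyltransferase gene DNMT3A. In a window of ALK it began at -117, and in KLF11, a zinc-finger factor, at -182. The printed ALK window belongs to a start inside the gene and not to its most upstream start. Its palindrome therefore says nothing about the promoter at that upstream start. Whether other printed windows, such as that of DNMT3A, also belong to an internal start was not examined. A match describes letters only and is not a binding site.

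Both sides were dense in MYCN summits. There were 30.7 summits per Mb on the telomeric side and 35.7 on the centromeric side, against 16.9 on the rest of chromosome 2. The ratio to the rest was 1.82 for the telomeric side (95% CI 1.65 to 2.002) and 2.11 for the centromeric side (95% CI 1.91 to 2.33). These exact intervals cover counting error only, since neighbouring summits are not independent. Per Mb there were 23.9 intervals on the telomeric side and 26.7 on the centromeric side, against 12.3 on the rest. The intervals covered 0.885% of the telomeric side and 1.10% of the centromeric side, against 0.513% of the rest.

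The rest of chromosome 2 is itself uneven, which gives a wider measure of spread. Cut into 13 consecutive windows as long as the telomeric side, the rest had 4.12 to 31.3 summits per Mb. The median window had 12.5, and 12 of the 13 lay below the telomeric side. Cut into 16 windows as long as the centromeric side it had 4.09 to 30.1 per Mb. The median window had 14.2, and all 16 lay below the centromeric side. The remaining short arm, from 30200000 to the longest stretch without a peak, had 20.6 summits per Mb, and the long arm beyond it 15.7. Against chromosomes other than 2, the ratios were lower, 1.43 for the telomeric side and 1.66 for the centromeric side.

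Gene content differed between the sides. In RefSeq order, 53 protein-coding genes precede NBAS, the gene at the telomeric border of the excluded segment, 108 follow CYRIA, inside the segment, up to and including ALK, and 1089 lie beyond. Per protein-coding gene there were 8.87 summits on the telomeric side and 4.36 on the centromeric side, against 3.30 on the rest. The ratio to the rest was then 2.68 (95% CI 2.43 to 2.96) for the telomeric side and 1.32 (95% CI 1.197 to 1.453) for the centromeric side, so the order of the sides turned round when genes replaced megabases. The gene counts assume the same gene order on hg19 and GRCh38.

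**Figure D1:**
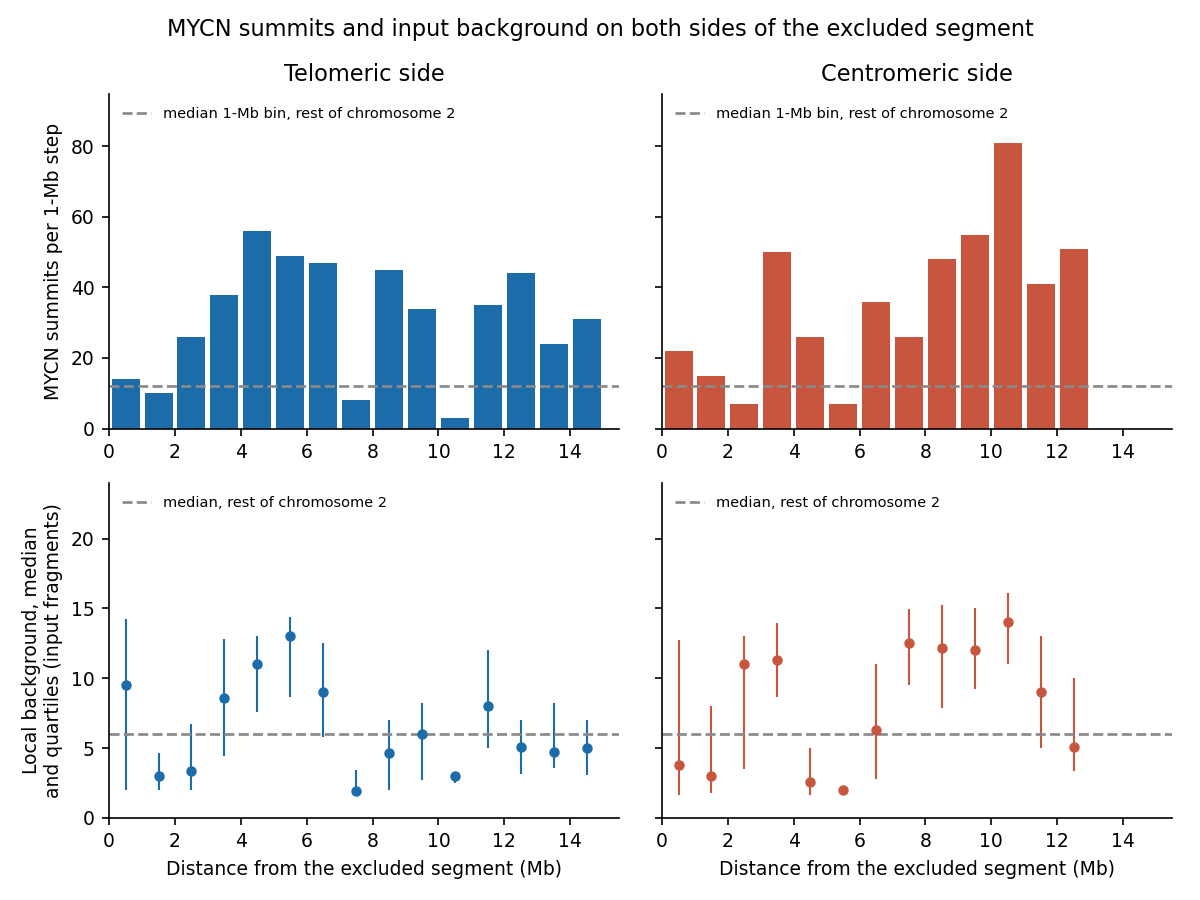
MYCN summits per 1-Mb step (top) and the local input background with quartiles in input fragments (bottom), by distance in Mb from the nearer border of the excluded segment, for the telomeric side (left) and the centromeric side (right). Dashed lines are the rest of chromosome 2, with a median of 12 summits per 1-Mb bin and a median background of 6. The tallest step, with 81 summits, lies 10 to 11 Mb from the segment on the centromeric side.

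Of 3 blocks counted outwards from the excluded segment, the nearest was the least dense on both sides. The first 3 Mb outwards held 50 summits on the telomeric side, or 16.7 per Mb, and 44 on the centromeric side, or 14.7 per Mb. From 3 to 8 Mb outwards the density was 39.6 per Mb on the telomeric side and 29 on the centromeric side. From 8 Mb to as far out as the centromeric side reaches it was 32.7 on the telomeric side and 54.2 on the centromeric side. The median background, in input fragments, was 3.78 in the first 3 Mb of the telomeric side, 10.1 from 3 to 8 Mb and 5.02 farther out. On the centromeric side it was 3.71, 9 and 11.2 over the same steps, against 6 on the rest of chromosome 2. Over these 3 blocks the centromeric medians were lower towards the excluded segment, while the telomeric ones were highest in the middle block. Single 1-Mb steps of the centromeric side did not follow that order. Their medians were 11 at 2 to 3 Mb outwards (7 summits), 2.55 at 4 to 5 Mb, 14 at 10 to 11 Mb and 5.04 at 12 to 13 Mb.

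The summits nearest to the borders of the rule were ordinary in height. The last summit inside the telomeric side, at 15225131, had a fold enrichment of 4.47, and the first one excluded, at 15309986, had 7.78. At the other border of the segment, the summit at 17042602 inside the centromeric side had 7.49 and the excluded one at 16956423 had 3.24. The last summit of the centromeric side, at 30169483, had 8.88, and the next one outside, at 30248588, had 2.83. The backgrounds of these 6 summits lay within 1.96 and 15 input fragments.

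The 1-Mb bins showed where the summits were. All 15 whole bins of the telomeric side were occupied, with 3 to 55 summits and a median of 31, and 11 of them held at least 25. On the centromeric side the 13 whole bins held 7 to 81 summits with a median of 36, and 9 held at least 25. On the rest of chromosome 2, 56 of 213 bins held at least 25 summits, the median was 12 and 18 bins were empty. The bins starting at 15 and 30 Mb are cut by the rule and hold 3 and 6 members.

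The densest telomeric bins lay between 8 and 12 Mb and at 3 Mb. The bin from 10 to 11 Mb had 55 summits, rank 12 of the 241 whole bins of chromosome 2, and the bin from 11 to 12 Mb had 52. Then came the bins starting at 3 Mb with 48, at 9 Mb with 41 and at 8 Mb with 40. The bin from 4 to 5 Mb had 3 summits and was the emptiest. It contained the longest stretch of this side without a peak, 583 kb from 4402573 to 4985975.

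The centromeric side held the second densest bin of the chromosome. From 27 to 28 Mb there were 81 summits in 54 intervals. The bin starting at 26 Mb had 55, and those starting at 29, 20 and 25 Mb had 51, 50 and 48. The emptiest bins, from 19 to 20 Mb and from 22 to 23 Mb, had 7 each. Stretches of at least 250 kb without a peak made up 19.3% of the telomeric side (8 stretches) and 17.1% of the centromeric side (6 stretches), against 49.0% of the rest (170 stretches).

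The loci listed for this arm lay mostly in crowded bins. Loci were placed only to the whole megabase, from textbook hg19 positions, and for all 32 the order of the bins was that of RefSeq. Which interval belongs to which gene was not determined. The 7 loci of growth and metabolism fell in 5 bins with 48 to 81 summits, and 5 of 5 bins held at least 25, as did 7 of 7 bins of the signalling and cytoskeleton loci and 6 of 7 of the transcription factors, but 3 of 5 of the neuronal loci. Of all bins, 73.3% of the telomeric side and 69.2% of the centromeric side held that many, against 26.3% of the rest. At this threshold, which most bins of the sides pass, little can be told about growth genes. By median, the growth bins held 55 summits, the neuronal bins 48, the signalling and cytoskeleton bins 41 and the transcription factor bins 40. The median whole bin held 31 on the telomeric side and 36 on the centromeric side. Because the loci were chosen with earlier results known, no conclusion on growth genes is drawn. The bin of RRM2 (the small subunit of ribonucleotide reductase), ODC1, the nucleolar gene NOL10 and KLF11 is the one from 10 to 11 Mb. The bin of CAD, which carries the first steps of pyrimidine synthesis, and of MAPRE3, a neuronal microtubule-end protein, is the one with 81 summits. RPS7, a protein of the small ribosomal subunit, lies in the bin with 48 summits at 3 Mb, and HADHA, a subunit of the mitochondrial enzyme of fatty acid oxidation, in the one with 55 at 26 Mb.

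The 7 bins of the transcription factors held 7 to 55 summits with a median of 40. ID2, a helix-loop-helix protein that cannot bind DNA and shares its bin with KIDINS220, had 40 summits in its bin. E2F6, a repressive E2F factor, had 52 in its bin. FOSL2, an AP-1 subunit, and PPP1CB, a phosphatase subunit, shared a bin with 41. The nuclear receptor coactivator NCOA1 had 26 in its bin, and OSR1, a factor of the embryonic kidney, only 7.

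The 9 signalling and cytoskeleton loci lay in 7 bins, all with 29 to 52 summits. The bin of ALK and WDR43 had 51 summits in 39 intervals. ALK, on the minus strand, also reaches into the next bin, so its most upstream start lies there and not in this bin. Of the summits of that next bin, 6 belong here. PUM2 had 50 in its bin, the membrane protease ADAM17 and the 14-3-3 protein YWHAQ shared a bin with 41, and the pseudokinase TRIB2 had 29 in its bin. Bins of the 5 neuronal loci were more varied, with 15 summits in that of the potassium channel subunit KCNS3, 22 in that of the calcium sensor VSNL1, 48 in that of the hormone precursor POMC, 55 in that of the potassium channel KCNK3 and the 81 already given for MAPRE3. DNMT3A shared the bin of POMC, and the kelch-like gene KLHL29 had 36 in its bin. The bin of APOB, a liver and gut lipoprotein, held 26.

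The SOX11 bin held the interval with most summits of either side. SOX11 is an HMG-box transcription factor of the sympathoadrenal lineage, and RefSeq lists LOC105373397 and CMPK2 as its protein-coding neighbours. Its bin, from 5 to 6 Mb, had 28 summits in only 16 intervals. The interval from 5831176 to 5834119, 2944 bp long, held 10 summits, and 6 intervals in the whole list were wider. A further interval close by, from 5836122 to 5837725, held 4. Along the wide interval, fold enrichment was 4.31 and 3.13 at the first summits, 9.04 and 10.2 at the third and the fourth, 6.76, 7.61 and 5.36 over the middle, and 4.19, 3.13 and 4.39 at the far end. ChIP fragments ran from 32 to 163 and the background only from 5.18 to 10.0, so the highest point was the fourth summit, at 5831923.

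Most intervals of both sides were short and held a single summit. The median width was 249.5 bp on the telomeric side and 279 bp on the centromeric side, against 279 bp on the rest. A single summit was found in 82.0% of telomeric intervals (95% CI 77.6 to 85.8) and 78.2% of centromeric ones (95% CI 73.5 to 82.4), against 75.5% of the rest (95% CI 73.8 to 77.2). Intervals with at least 4 summits numbered 8 on the telomeric side and 11 on the centromeric side, 2.19% and 3.12% of each, against 2.82% of the rest. Another interval lay within 10 kb for 63.4% of telomeric intervals (95% CI 58.2 to 68.3) and 60.3% of centromeric ones (95% CI 55.0 to 65.5), against 53.1% of the rest (95% CI 51.2 to 55.0). After the SOX11-bin interval, the widest were 2316 bp from 25563325 to 25565640 with 6 summits, 2002 bp from 20422881 to 20424882 with 4, 1793 bp from 676079 to 677871 with 3 and 1693 bp from 11483907 to 11485599 with 3.

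Fold enrichment, the authors' ratio of ChIP pileup to local background at each summit, was used within this list only. Its median was 5.41 on the telomeric side (quartiles 4.06 and 7.51) and 5.24 on the centromeric side (3.96 and 7.16), against 5.59 on the rest (4.08 and 7.97). Over the whole list, 12% of summits reached a fold of at least 10. On the telomeric side it was 57 summits, or 12.1% (95% CI 9.32 to 15.4), which is near that background. On the centromeric side it was 36 summits, or 7.64% (95% CI 5.41 to 10.4), against 531 summits or 14.8% of the rest (95% CI 13.6 to 15.96). All 16 windows of the rest had a larger share than the centromeric side, from 9.38% to 24.2%. A fold of at least 20 was found at 4 telomeric summits (0.851%) and 1 centromeric summit (0.212%), against 0.778% of all summits and 1.36% of the rest. Set against the other chromosomes, the difference in median fold was 0.08 on the telomeric side (95% CI -0.18 to 0.34) and -0.10 on the centromeric side (95% CI -0.35 to 0.16). The difference in the share of folds of at least 10 was 0.31 percentage points on the telomeric side and -4.18 on the centromeric side (95% CI -6.70 to -1.66).

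The telomeric sites of highest fold mostly lay over a low background, which is partly built in, since the background divides the fold. The first, at 2116331 in an interval of 754 bp, had a fold of 31.5 with 244 ChIP fragments over a background of 4. It was followed by summits at 2336985 with 24.5, at 6985675 with 21.7 and at 3005579 with 20.3. Those at 13555153, 6665303, 2923531 and 439285 had 18.8, 18.1, 16.6 and 16.5, and those at 13757033 and 7154694 had 15.9 and 15.8. Of these 10, 7 were alone in their interval, against a single summit in 82.0% of all telomeric intervals. Their median background was 2.04, little above the genome-wide value of 1.61. Of the 10, 3 lay in the bin from 2 to 3 Mb.

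The centromeric side had 1 site of that height. At 29873884, in the bin of ALK and WDR43, a single summit in an interval of 780 bp had a fold of 30.3 with 140 fragments over a background of 2. The next were at 20490944 with 17.9, in the bin of PUM2, and at 23583780 with 17.3, in the bin of KLHL29. Summits at 25237703 and 25207953, in the bin of POMC and DNMT3A, had 15.9 and 15.2, and the one at 27488091, in the bin of CAD, had 15.6. Those at 22505968, 17352898, 29485935 and 21627262 had 14.9, 14.3, 14.3 and 13.2. Of these 10, 9 were alone in their interval, against a single summit in 78.2% of all centromeric intervals.

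Ranked by ChIP fragments instead, other sites led. On the telomeric side the highest were 272 fragments at 10588911 and 258 at 10830088, both in the bin of ODC1 and RRM2, 269 at 11919460, and 245 each at 10183734 and 11622903. Their folds were 7.24 to 10.2, over backgrounds of 16 to 22. On the centromeric side the highest were 277 at 27440325 and 264 at 27309487 in the bin of CAD, 275 at 29093202 and 273 at 29117548 in the bin of WDR43, and 261 at 23574650. The 50 summits of highest fold and the 50 with most fragments shared 19 on the telomeric side and 14 on the centromeric side. No summit of the list exceeded 280 fragments, so the folds of sites with a high background have a ceiling. The highest counts named here lie close to that value, and whether counts are cut off there was not tested.

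The input background was higher on the centromeric side than along the rest of the chromosome. Its median was 7 input fragments on the telomeric side and 10.8 on the centromeric side, against 6 on the rest, and the genome-wide value is 1.61. This background is a rate solved for each summit on the scale of input fragments, not a count of fragments at the site. The genome-wide value is the lowest it takes in the list. A background of at least 12 was found at 21.5% of telomeric summits (95% CI 17.9 to 25.5) and 41.8% of centromeric summits (95% CI 37.3 to 46.4), against 12.9% of the rest (95% CI 11.8 to 14.04). ChIP fragments were higher too on the centromeric side, with medians of 58 on the telomeric side and 80 on the centromeric side, against 56 on the rest. All 16 windows of the rest were lower than the centromeric side in both medians, at 3.22 to 9.12 input and 42 to 72.5 ChIP fragments. Without the densest bin, from 27 to 28 Mb, the centromeric background was 9, and 1 of the 16 windows lay above it. Set against the other chromosomes, the difference in median background was -0.70 input fragments on the telomeric side and 3.08 on the centromeric side. There were 3.46 protein-coding genes per Mb on the telomeric side and 8.18 on the centromeric side, against 5.11 on the rest. The centromeric side was thus highest in both background and gene density, while the telomeric side had fewer genes per Mb than the rest with a background 1 input fragment higher, and the part of gene density in the result was not tested.

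**Figure D2:**
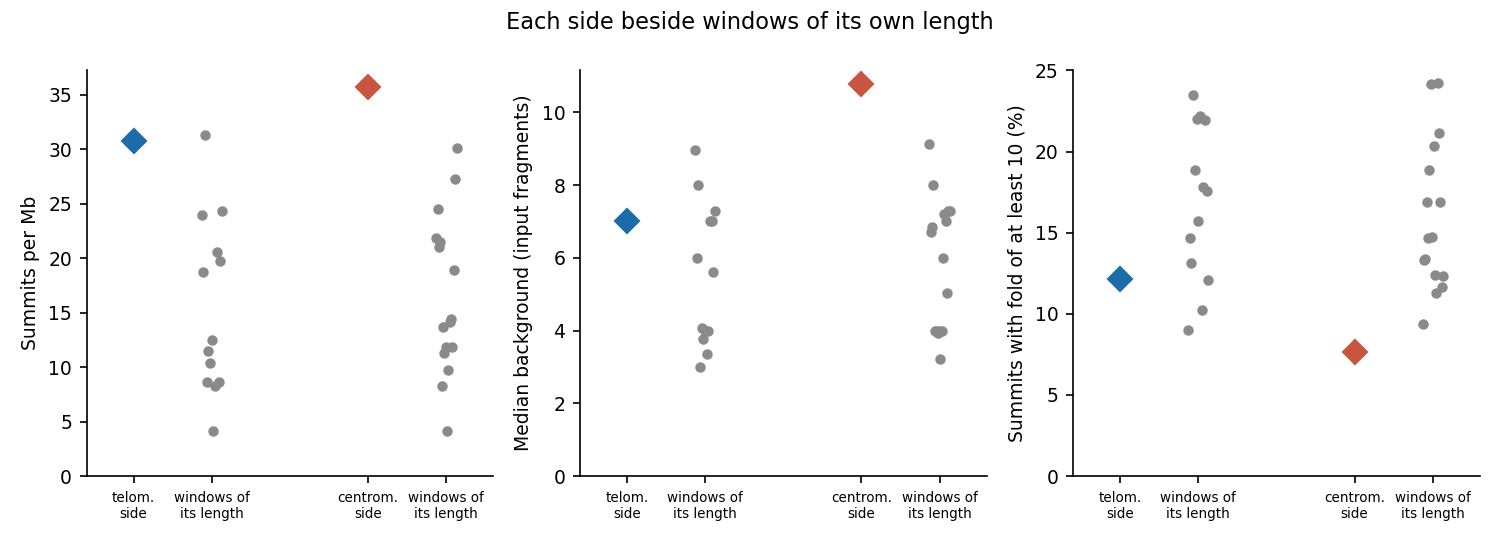
Summits per Mb, median local background in input fragments and percent of summits with a fold of at least 10, for the telomeric side and the centromeric side (diamonds) and for consecutive windows of the same length along the rest of chromosome 2 (grey points). The centromeric side lies above all 16 windows in density and background and below all 16 in the share of high folds, while the telomeric side lies inside the range of its 13 windows in each.

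A median background of at least 9 was found in 3 of the 14 telomeric bins with at least 10 summits and 6 of the 11 centromeric ones, against 13 of 122 on the rest. The 3 telomeric bins were those from 9 to 12 Mb. The centromeric ones were the bin of PUM2, with 11.3, the 4 bins from 24 to 28 Mb and the bin of FOSL2, with 9. The runs of adjoining bins from 9 to 12 and from 24 to 28 Mb, chosen after their values were seen, were set against the other bins of their side. From 24 to 28 Mb, 210 summits, or 44.6% of the centromeric side, had medians of 13 input and 103 ChIP fragments, and 0 of them were at the genome-wide background. The other centromeric summits had medians of 6.02 input and 61 ChIP fragments, and 30 of them were at the genome-wide value. On the telomeric side, the 148 summits from 9 to 12 Mb had medians of 11 input and 73 ChIP fragments, and the other telomeric summits 5.18 and 50.5. Folds of 10 or more made up 4.29% of the summits from 24 to 28 Mb and 10.3% of the other centromeric summits. They made up 8.78% of those from 9 to 12 Mb and 13.7% of the other telomeric summits.

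Dense bins had a higher background along the whole chromosome. Across the 25 bins of both sides with at least 10 summits, Spearman's rho between the number of summits and the median background was 0.67, and across the 122 such bins of the rest it was 0.52. These are descriptions, since bins share libraries and each median comes from the bin's own summits. In bins with 50 or more summits the median background was 11 on the telomeric side (2 bins) and 11.8 on the centromeric side (4 bins), against 8.96 on the rest (12 bins). In bins with 30 to 49 summits it was 6.75 on the telomeric side and 9 on the centromeric side, against 6 on the rest. In bins with 10 to 29 summits it was 3.78 on the telomeric side and 5 on the centromeric side, against 5.18 on the rest. The bin from 27 to 28 Mb had the highest median background of the 147 bins, 14, and those starting at 24 and 25 Mb ranked 3 and 4.

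**Figure D3:**
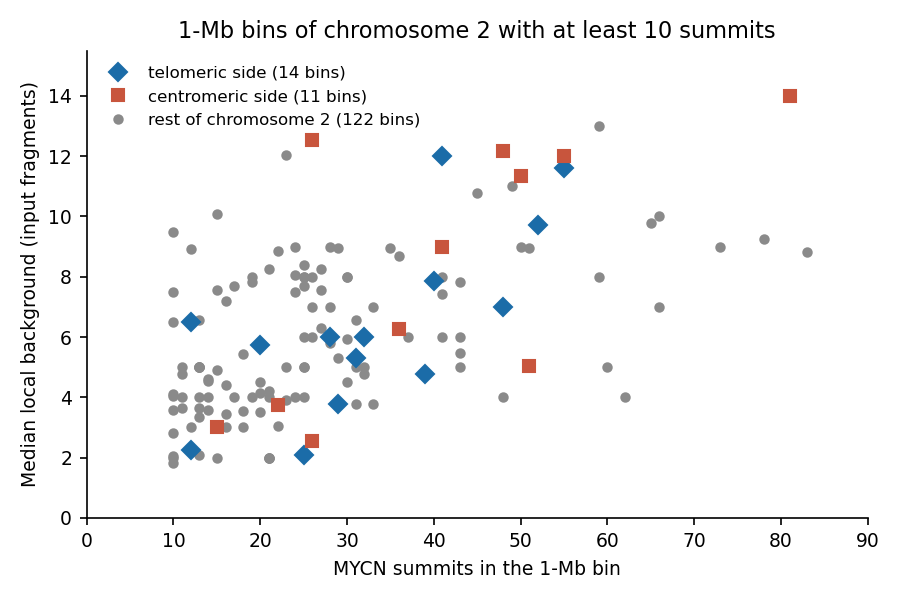
Number of MYCN summits and median local background in input fragments for each 1-Mb bin of chromosome 2 with at least 10 summits, on the telomeric side, the centromeric side and the rest of chromosome 2. The bin with 81 summits and a background of 14 lies at the upper right edge, and both sides also have bins with backgrounds near 2.

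The difference in the share of high folds was smaller at a common mix of backgrounds. Given the mix of backgrounds seen on the rest of chromosome 2, the share of summits with a fold of at least 10 would be 12.7% on the telomeric side and 11.4% on the centromeric side, against the 14.8% of the rest. At a background of at least 12, the share was 8.91% on the telomeric side (95% CI 4.16 to 16.2) and 1.02% on the centromeric side (95% CI 0.123 to 3.62), against 5.17% on the rest (95% CI 3.34 to 7.60). This class is open at the top, and with at most 280 fragments a fold of 10 cannot be reached above a background of 17.1. Above it lay 15.8% of the class on the telomeric side and 25.9% on the centromeric side, against 12.5% on the rest. Without those summits, a limit set after seeing the data, the share was 10.6% on the telomeric side (95% CI 4.96 to 19.2) and 1.37% on the centromeric side (95% CI 0.166 to 4.86), against 5.91% on the rest (95% CI 3.82 to 8.67). At a background of 4 to below 8 the telomeric share was 8.16% (95% CI 4.29 to 13.8), against 16.3% on the rest (95% CI 14.2 to 18.5). Below 12, the intervals of the centromeric side included the value of the rest in each class. At the genome-wide background the median fold was 7.39 on the telomeric side and 6.66 on the centromeric side, against 6.29 on the rest.

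**Figure D4:**
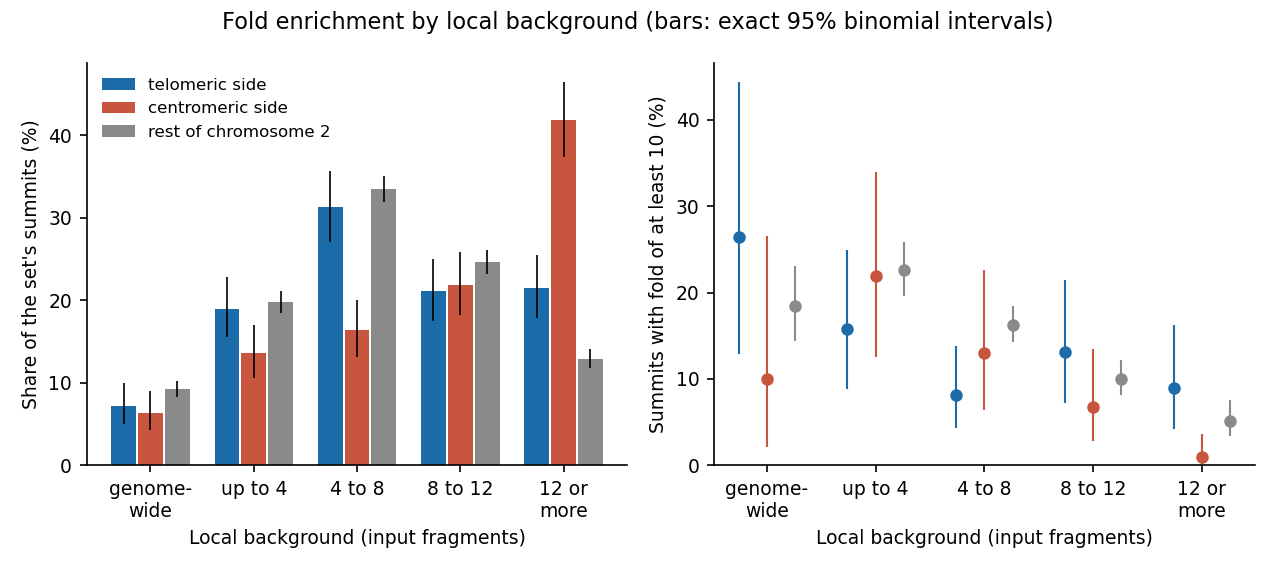
Share of summits in each class of local background (left, percent of the set) and share of summits with a fold of at least 10 within the class (right, percent), for the telomeric side, the centromeric side and the rest of chromosome 2, with exact 95% binomial intervals. The centromeric side has 41.8% of its summits at a background of 12 or more, where its share of high folds is 1.02%. In that class a fold of 10 is out of reach above a background of 17.1.

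The bins of low background held the highest median folds. The bin from 13 to 14 Mb had 12 summits with a median fold of 8.82, rank 2 among the 147 bins with at least 10 summits, over a median background of 2.26. The bin from 6 to 7 Mb ranked 7, with a median fold of 7.79 over 2.1. Among the bins of the sides with at least 10 summits, the lowest median folds were 4.42 in the bin of PUM2 and 4.48 in the bin of ODC1 and RRM2, over backgrounds of 11.3 and 11.6. The 7 summits of the OSR1 bin, from 19 to 20 Mb, had a median fold of 3.96 over a background of 11. Across the 25 bins of both sides, rho between background and fold was -0.79, which is partly built in, since the background divides the fold.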

How the data were processed

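MYCN ChIP and input libraries of Kelly cells were summarised by the authors in 1 peak list per state. Per the submitters' processing notes, MACS2 2.1.1, STAR 2.5.1b, deepTools 2.2.4, SAMtools 1.3.1 and Picard were used on hg19. Their settings are not given. The deposited columns used were the fold enrichment (a ratio), the −log10 p-value and −log10 q-value of each summit and its position. The deposited integer score was not used.

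The members, loci and lists were chosen with earlier results of these data known. The sites named are, by a rule written with the design, the 10 summits of highest fold per side (1 per interval), the 5 widest intervals, the 5 densest and the emptiest 1-Mb bins per side, the summits at the borders and 32 loci. The groups of bins, the ranking by fragments, the like-density bins and the windows were added later.

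The depositions give no read counts. ChIP fragments and background were solved from fold and p-value of each summit: the fold is the scaled pileup plus 1 over the background plus 1, and p is the Poisson tail. With a scale of 0.641, 64657 of 64657 summits were matched within 0.0005 in −log10 p, 24 of them in 2 ways, and the solution was tested on simulated data. Summits of the list had 13 to 280 ChIP fragments, and 7 summits stood at exactly 280. The shortest intervals of both sides and of the rest were 140 bp. How reads at the same position were handled is not given, and there were no molecular identifiers. How far copies of 1 molecule count among the fragments was therefore not tested. Lengths run to the last summit and include unmappable sequence. Shares have exact (Clopper-Pearson) 95% intervals and density ratios exact conditional binomial ones. No p-value was computed, because each list pools its samples. Of the 32 loci, 3 are not reported here by name. Promoter letters and gene order come from RefSeq on GRCh38.p14. Promoter and E-box shares of the peaks were planned and not run, since no hg19 annotation or sequence was used here. Python 3.11.15, numpy 2.4.6, pandas 2.3.3, scipy 1.17.1 and matplotlib 3.10.9 were used.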

Additional observations from a re-analysis of the deposited data

How the results depend on the processing

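No paired analysis was possible because the ChIP samples of a state share a single list. Leaving out a replicate was not possible either. Of the values under alternatives, 47 stayed within the counting interval of the value reported, 14 moved beyond it and 1 reversed. Some values that stayed within the interval still changed sign. The telomeric difference from the rest in the share of folds of at least 10, -2.63 percentage points, was 0.31 against the other chromosomes. That in median ChIP fragments, 2, was -2 when −log10 q had to reach 5. The density ratios of the telomeric side, 1.82, and of the centromeric side, 2.11, stayed above 1 under every alternative run. Set against chromosomes 1 to 22 and X without 2, they were 1.43 and 1.66, and per protein-coding gene, an alternative chosen after seeing the data, 2.68 and 1.32. At −log10 q of 10 or more the centromeric ratio was 2.38, and without the bin from 27 to 28 Mb, also chosen after seeing the data, it was 1.89. The telomeric median background was 1 input fragment above the rest of chromosome 2 and -0.70 from the other chromosomes, so its direction reversed with the set compared. The centromeric excess of 4.78 input fragments was 3.08 against the other chromosomes, and 3 both with the strongest summit of each interval and without the bin from 27 to 28 Mb. The difference in median fold of the telomeric side from the rest, -0.17, was -0.50 with the strongest summit of each interval. Against the other chromosomes it was 0.08. That of the centromeric side, -0.35, was -0.10 against the other chromosomes, with an interval that includes 0. It was -0.63 when −log10 q had to reach 5 and -1.24 when it had to reach 10, where its difference in the share of folds of at least 10, -7.11 percentage points, was -12.8. Against the other chromosomes, chosen after seeing the data, that share differed by -4.18 points. The cause of these changes was not tested. The alternative planned for the E-box window was not run, because no hg19 sequence was used. The lowest −log10 q-value was 2.01 on each side and on the rest. The fewest ChIP fragments were 13 on the telomeric side, 16 on the centromeric side and 13 on the rest. A higher background needs more fragments for the same p-value, so the weakest site that can be listed differs with the background. Weaker sites are not detectable at this depth.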
